A study of Drosophila melanogaster with 14 samples.

Results

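Nuclear run-on of Drosophila melanogaster ovaries was compared between 1 library from ovaries with a germline knockdown of cuff (shCuff) and 1 library from ovaries that carried the driver without a hairpin (control). The members were 1-kb bins of the dm3 genome, and 10-kb windows built from them, in which the deposited RPKM (reads per kb of bin and per 1000000 library reads) averaged at least 1 over both run-on libraries. This kept 56298 of 168744 bins and 6806 of 16880 windows. Of the windows, 6262 reached 1 RPKM in both libraries, 358 in shCuff alone and 186 in the control alone. The pair is 2 of the 14 samples of the series, which compares RNA, nascent RNA, small RNA and polymerase occupancy around the protein Cutoff. The 4 total RNA libraries and 2 poly(A) RNA libraries of the series were used here as separate readouts of the same regions.

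Cutoff, the product of cuff, is a nuclear protein of the germline that is found with Rhino and Deadlock on dual-strand piRNA clusters, loci full of transposon remnants that are transcribed from both strands into precursors of PIWI-interacting RNAs. These small RNAs guide Piwi proteins, which silence transposons in the ovary, in part by repressing transcription in the nucleus. In nuclear run-on, polymerases that were engaged when the nuclei were isolated extend their transcripts in the presence of a labelled nucleotide, so reads report where polymerase was transcribing and not how much RNA had accumulated. The title of the series places Cutoff at the suppression of transcription termination.

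The shCuff flies carried the driver P{GAL4::VP16-nos.UTR}CG6325MVD1 together with the hairpin line TRiP.GL00054 at attP2. The run-on control carried the same driver in a w[1118] background, with no hairpin. The shWhite flies, against which total and poly(A) RNA but not run-on were measured, carried the driver with TRiP.HMS00017, whose hairpin targets white, an eye colour gene. All flies were 3 to 14 days old. The nos driver acts in germ cells, while a whole ovary also holds somatic follicle cells in which cuff was not targeted. As these were bulk ovaries, fewer cells of a type and less RNA per cell cannot be told apart. The files name no genes, so how far cuff itself was reduced could not be read from them. Reads of the chorion amplicon at 66D, whose eggshell genes follicle cells express late in egg chamber growth, were present in all libraries, with 5917 run-on reads in shCuff and 8009 in the control.

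The shCuff run-on library held 2511890 reads and the control library 2438630. Reads lay in 41.8% of all bins in shCuff and in 42.2% in the control, and the median kept window held 186 reads in shCuff and 172 in the control. Each ratio below is reads per 1000000 library reads (RPM) in shCuff over RPM in the control, followed by its 95% exact conditional (Clopper-Pearson) interval. With 1 library a side there is no replicate check and no test, and intervals cover counting error only. The RNA ratios are shCuff over shWhite and have their own pairs. Total RNA has 2 pairs, and its shCuff library of pair 2 stood apart, with 8.37% of its bins with reads at 1 to 3 reads, against 33.3% to 44.4% in the other 5 RNA libraries. Values of pair 2 are given beside those of pair 1 for that reason.

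The median kept window had nearly the same run-on level in both libraries, and most windows differed by more than counting error in one direction or the other. The median log2 ratio of the windows was -0.03, the middle 50% lay between -0.49 and 0.53, and the SD was 0.96, against a median counting error of 0.16. Of the 6806 windows, 68.0% had an interval clear of 1. A window was called when it was at least 2-fold higher or lower with its interval clear of 1, and 815 windows (12.0%) were higher in shCuff while 510 (7.49%) were lower. At 1-kb resolution 12384 bins (22.0%) were higher and 9500 (16.9%) lower. Of these, 3202 higher bins had 0 control reads and 2683 lower bins had 0 shCuff reads. The log2 ratios of neighbouring windows on the 5 large arms (2L, 2R, 3L, 3R and X) correlated at a Pearson r of 0.40 over 5267 pairs. The value was 0.25 at a distance of 2 windows, 0.11 at 5 and 0.04 at 10, so differences extended over several windows. Neighbouring windows share both libraries and can share transcripts, so these are descriptions.

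**Figure D1:**
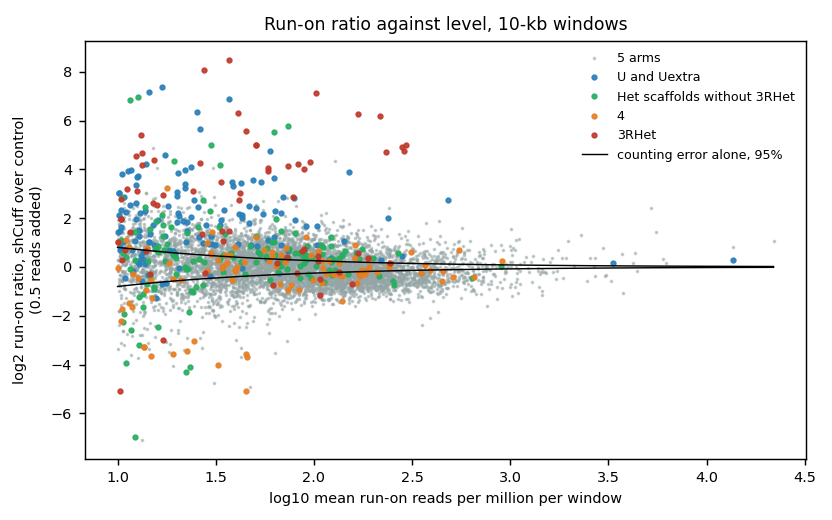
Log2 run-on ratio (shCuff over control, 0.5 reads added) of each of the 6806 kept 10-kb windows against its log10 mean run-on level in RPM, coloured by chromosome class, with black lines for the range that counting error alone would give. Windows of the 5 arms spread around 0 beyond these lines at all levels, while windows of 3RHet (red), U and Uextra (blue) mostly sit above 0.

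Among the sequences with kept windows, the summed run-on ratio was highest on 3RHet and on Uextra. The scaffold 3RHet, assembled heterochromatin of 3R, held 19244 reads in shCuff and 6672 in the control, a ratio of 2.80 (2.72 to 2.88). Of its 66 kept windows, 44 were called higher and 3 lower, against 12.0% and 7.49% over all windows. The filter has a part in these counts, since 35 of the 66 windows reached 1 RPKM in shCuff alone, 2 in the control alone and 29 in both, and a window that entered through 1 library had to differ. Uextra, sequence that the assembly does not place, had 16300 reads in shCuff and 5935 in the control, a ratio of 2.67 (2.59 to 2.75), and 56 of its 83 windows were higher and 1 lower, with 37 that entered through shCuff alone and 2 through the control alone. On U, also unplaced, 34 of 47 windows were higher and 0 lower, with 26 that entered through shCuff alone and 0 through the control alone. Its median window ratio of 4.21 lay above that of Uextra, 3.20, and below that of 3RHet, 6.80. Its summed ratio was 1.29 (1.27 to 1.30), or 1.54 without the bin from 5301001 to 5302000, which held 31371 reads in shCuff and 26549 in the control. On 2RHet the ratio was 1.31 (1.28 to 1.34), with 25 of 68 windows higher and 3 lower, and 15 windows entered through shCuff alone and 3 through the control alone.

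The other heterochromatic scaffolds with kept windows had summed ratios below 1. The ratio was 0.914 (0.889 to 0.940) for 3LHet, with 3 windows higher and 9 lower of 59, although its median window ratio was 1.14. It was 0.773 (0.713 to 0.838) for 2LHet and 0.753 (0.700 to 0.810) for XHet, which kept 7 and 6 windows. On YHet, heterochromatin of the Y, shCuff had 14 reads and the control 0, from a tissue of females, and no window was kept. Without 3RHet the Het scaffolds together had a ratio of 1.09 (1.07 to 1.11), against 1.44 (1.42 to 1.46) with it.

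The 5 arms, which held most reads, were close to balance. Their summed ratio was 0.977 (0.975 to 0.978), with 645 windows higher and 476 lower of 6370. Of these windows, 235 had entered through shCuff alone and 152 through the control alone, which bears on the balance of the calls. The X lay lowest of the arms at 0.916 (0.912 to 0.919), and it was the arm with more windows lower (127) than higher (94) among its 1281. The arm 2R had 1.12 (1.115 to 1.124), but 1.04 without its bin of most reads. The small chromosome 4, which is largely heterochromatic and yet carries active genes, had a ratio of 0.935 (0.920 to 0.9502), and 16 of its 98 windows (16.3%) were lower and 6 higher. Here 4 windows had entered through shCuff alone and 17 through the control alone, which bears on the balance of these calls.

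**Figure D2:**
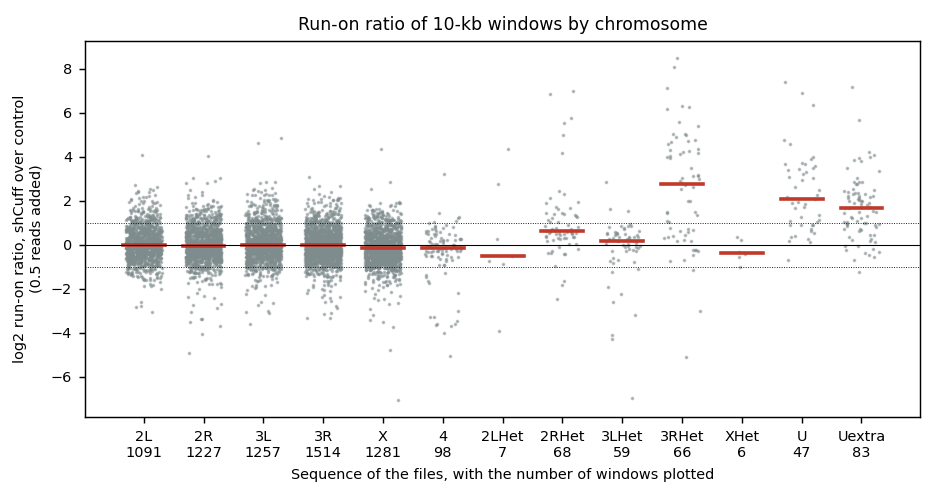
Log2 run-on ratio (shCuff over control, 0.5 reads added) of each kept 10-kb window, by sequence of the files, with the number of windows under each name. Points are windows, red bars are medians and dotted lines mark 2-fold, and the 2 windows of the mitochondrial genome are left out. The medians of 3RHet, U and Uextra lie above the upper dotted line, while those of the 5 arms lie near 0.

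Stretches were defined as runs of at least 2 adjacent kept windows, each at least 1.5-fold on the same side with its interval clear of 1. Single windows passed that level in 22.3% of cases on the higher side and in 20.3% on the lower side. There were 290 stretches with more run-on reads in shCuff, which covered 8717 kb, and 227 with fewer, which covered 5760 kb. Of those that gained reads, 263 lay on the 5 arms, 17 on Het scaffolds, 7 on U or Uextra and 3 on chromosome 4. Of those that lost reads, 217 lay on the arms, 5 on Het scaffolds and 5 on chromosome 4. On the arms both kinds were modest in size, with a median ratio of 2.03 for gains and 0.536 for losses, while the gains on Het scaffolds had a median of 3.93. At 5 or more windows there were 34 gaining stretches and 12 losing ones. Since run-on values chose the stretches, their sizes are descriptions, and the 10 in each direction whose interval lay farthest from 1 are described below. Counts of kept bins on one side, given below, are descriptions too. Where 1 library has few reads, a bin passes the filter mostly through the other library and then has to differ.

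The gain on 3RHet was concentrated in 4 of these stretches. The longest, 3RHet from 570001 to 710000, held 4938 reads in shCuff and 241 in the control over 14 windows, a ratio of 19.9 (17.5 to 22.7). Its most transcribed window, starting at 590001, had 574 RPM in shCuff and 17.6 RPM in the control, and the window starting at 700001 still had 18.3 RPM in shCuff and 2.46 RPM in the control. Reads were thus spread over most of the 140 kb, in 106 bins in shCuff and 59 in the control, and 89 of 94 kept bins were higher in shCuff. Just outside, the 10 kb to the left had 29 reads in shCuff and 13 in the control, and the 10 kb to the right had 0 in shCuff and 1 in the control.

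The second, 3RHet from 2070001 to 2190000, had 5318 reads in shCuff and 224 in the control over 12 windows, a ratio of 23.0 (20.2 to 26.5). In it the window starting at 2150001 had 545 RPM in shCuff and 18.04 RPM in the control, and the window starting at 2170001 had 139 reads in shCuff and 0 in the control. The third, 3RHet from 1250001 to 1320000, had 2361 reads in shCuff and 80 in the control, a ratio of 28.7 (22.9 to 36.3), and all 30 of its kept bins were higher. The fourth, from 820001 to 840000, was small, with 314 reads in shCuff and 28 in the control, a ratio of 10.9 (7.39 to 16.7). In the 4 together lay 67.2% of all 3RHet reads in shCuff and 8.59% in the control. The rest of 3RHet summed to 6313 reads in shCuff and 6099 in the control, a ratio of 1.00 (0.970 to 1.04). The scaffold was cut into 26 sections of 100 kb, and the 8 that overlap these stretches all had an interval above 1. Of the 18 others, 2 had an interval above 1 and 12 one below 1. Run-on values picked the 4 stretches, so leaving them out had to lower the ratio of the rest. Sections over them were bound to be high for the same reason. The rest still held gaining stretches, since 3RHet had 8 in all.

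**Figure D3:**
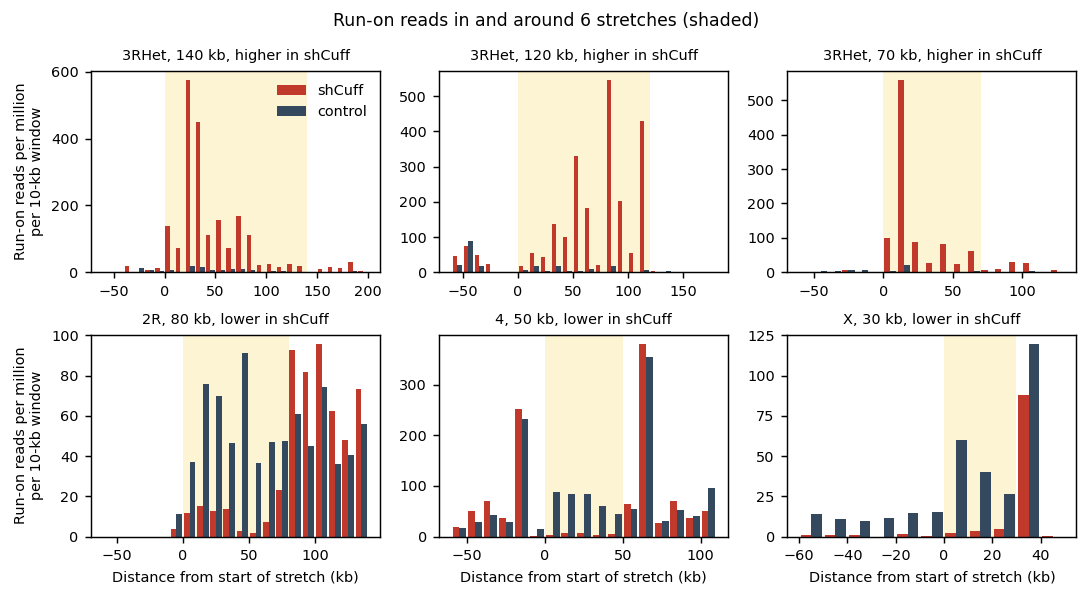
Run-on RPM in each 10-kb window in and around 6 named stretches (shaded), by distance from the start of the stretch in kb, with shCuff in red and the control in dark blue. In the upper row, 3 stretches of 3RHet have shCuff reads in nearly every window and few control reads. In the lower row, the control holds reads across stretches of 2R (inside 42AB), chromosome 4 and proximal X where shCuff holds few, and both libraries have reads again just outside on at least one side.

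The other gaining stretches with the clearest intervals lay mostly on unplaced or heterochromatic sequence. On 2RHet, the stretch from 2260001 to 2290000 had 450 reads in shCuff and 36 in the control, a ratio of 12.1 (8.63 to 17.6). The stretch from 1840001 to 1880000 on 2RHet had 488 reads in shCuff and 46 in the control, 10.3 (7.60 to 14.3). On 2LHet, from 240001 to 260000, shCuff had 213 reads and the control 21, although the scaffold as a whole had fewer reads in shCuff. Of the 10 stretches 2 lay on U, the one from 5550001 to 5570000 with 375 reads in shCuff and 10 in the control, and the one from 4010001 to 4030000 with 777 reads in shCuff and 62 in the control.

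One of the 10 lay on an arm, at the very tip of the X. X from 1 to 20000 had 747 reads in shCuff and 47 in the control, a ratio of 15.4 (11.5 to 21.2). A single bin, from 19001 to 20000, held 563 of the shCuff reads and 24 of the control reads, and the ratio was 7.77 without it. The next 10 kb went the other way, with 104 reads in shCuff and 158 in the control, a ratio of 0.639 (0.494 to 0.824). Total and poly(A) RNA of the tip also rested on that bin, and with it the ratios were 0.990 (0.959 to 1.02), 0.937 (0.876 to 1.00) and 0.911 (0.890 to 0.932) in total RNA pair 1, total RNA pair 2 and poly(A) RNA. Without it RNA was higher in all 3 pairs, an alternative added after seeing the data. Total RNA then had 146 reads in shCuff and 53 in shWhite in pair 1, 3.13 (2.27 to 4.38), and 726 in shCuff and 353 in shWhite in pair 2, 1.59 (1.40 to 1.81). Poly(A) RNA had 234 reads in shCuff and 34 in shWhite, 5.27 (3.66 to 7.79).

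Among the named stretches that lost run-on reads, chromosome 4 from 820001 to 870000 had shCuff reads in 23 of its bins and control reads in 49, nearly its whole length. It had 61 reads in shCuff and 879 in the control over 5 windows, a ratio of 0.0674 (0.0511 to 0.0874), and 46 of 47 kept bins were lower. The loss had a sharp right edge, since the next 10 kb had 162 reads in shCuff and 132 in the control, 1.19 (0.941 to 1.51). On the left, the adjoining 10 kb had 2 reads in shCuff and 34 in the control. A second stretch of chromosome 4, from 520001 to 550000, had 27 reads in shCuff and 202 in the control, a ratio of 0.130 (0.0835 to 0.194).

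Near the centromere of the X, 2 of the losing stretches bordered a longer region with few shCuff reads. X from 22260001 to 22280000 had 4 reads in shCuff and 123 in the control, a ratio of 0.0316 (0.00847 to 0.0829). X from 22380001 to 22410000 had 26 in shCuff and 308 in the control, 0.0820 (0.0527 to 0.122). Taken as one 150-kb region, which was joined after its values were seen, they and the windows between them held 69 reads in shCuff and 686 in the control, and 53 of 54 kept bins were lower. Windows on each side were transcribed in both libraries, with 166 reads in shCuff and 220 in the control to the left, and 221 in shCuff and 291 in the control to the right. Total RNA of the region did not move in one direction, with 44 reads in shCuff and 109 in shWhite in pair 1, a ratio of 0.459 (0.316 to 0.658), but 218 in shCuff and 97 in shWhite in pair 2, a ratio of 1.74 (1.36 to 2.23). Poly(A) RNA had 131 reads in shCuff and 70 in shWhite, 1.43 (1.06 to 1.94).

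The remaining losing stretches were 2 within the dual-strand cluster 42AB on 2R, 2 on 3LHet and 2 on 3R. On 2R from 2310001 to 2390000, 222 reads in shCuff stood against 1103 in the control over 8 windows, a ratio of 0.195 (0.168 to 0.226), and from 2210001 to 2230000 there were 64 in shCuff and 602 in the control, 0.103 (0.0785 to 0.134). On 3LHet the stretch from 2100001 to 2120000 had 9 reads in shCuff and 103 in the control, and its neighbouring windows had 0 reads in shCuff, while the control had 26 in the left and 18 in the right one. The stretch from 250001 to 270000 on 3LHet had 24 reads in shCuff and 148 in the control, also inside a wider loss, with 1 read in shCuff and 46 in the control to its left, and 3 in shCuff and 44 in the control to its right. On 3R, 45 reads in shCuff and 279 in the control lay from 21690001 to 21710000, and 16 reads in shCuff and 107 in the control from 100001 to 120000.

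The longest stretches on the arms, singled out after their values were seen, were shallower than the named ones. X from 13730001 to 13890000 ran over 16 windows with 4824 reads in shCuff and 2359 in the control, a ratio of 1.99 (1.89 to 2.09), and 121 of 148 kept bins were higher. Total RNA of it was 1.77 (1.24 to 2.56) and 3.02 (2.67 to 3.43) in pairs 1 and 2, and poly(A) RNA 1.57 (1.13 to 2.22). The longest loss, X from 3850001 to 3990000, ran over 14 windows with 2007 reads in shCuff and 4657 in the control, a ratio of 0.418 (0.397 to 0.441). There the RNA was not lower, with 1.32 (1.11 to 1.57) and 1.29 (1.19 to 1.41) in total RNA and 1.02 (0.882 to 1.18) in poly(A) RNA. On 3R from 14580001 to 14680000 the run-on ratio was 0.401 (0.357 to 0.451) while total RNA was 1.73 (1.22 to 2.47) and 1.78 (1.51 to 2.09) and poly(A) RNA 0.835 (0.569 to 1.23). On the unplaced sequence U from 160001 to 300000 shCuff had 2582 reads and the control 432, a ratio of 5.80 (5.24 to 6.44).

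Total and poly(A) RNA took no part in the choice of stretches, so they give a separate reading of the same places. Of the 10 named gaining stretches, 7, 9 and 8 had RNA intervals above 1 in total RNA pair 1, total RNA pair 2 and poly(A) RNA, and 7 had all 3 above 1. In the stretch of 3RHet from 570001 to 710000, total RNA had 1104 reads in shCuff and 111 in shWhite in pair 1, and 2226 in shCuff and 78 in shWhite in pair 2. Poly(A) RNA there had 4802 reads in shCuff and 200 in shWhite. In 2RHet from 2260001 to 2290000, poly(A) RNA had 2577 reads in shCuff and 3 in shWhite, a ratio of 657 (225 to 3190). Of these reads, 2562 in shCuff and 2 in shWhite lay in the window from 2260001 to 2270000, so this gain rested on 1 window. Of the 10 named losing stretches, 6, 5 and 4 had RNA intervals below 1, and 3 had all 3 below 1, while 3 lay above 1 in total RNA pair 2 and 1 in poly(A) RNA. In the small stretch of 3RHet from 820001 to 840000 the RNA gain rested on 1 bin, without which the ratio was 1.55 (0.666 to 3.74) in total RNA pair 1, 1.05 (0.565 to 1.97) in pair 2 and 0.948 (0.513 to 1.77) in poly(A) RNA. Chromosome 4 from 820001 to 870000 was low throughout, with 6 reads in shCuff and 158 in shWhite in total RNA pair 1, 33 in shCuff and 141 in shWhite in pair 2, and 5 in shCuff and 81 in shWhite in poly(A) RNA. Over all stretches with at least 10 reads in a pair, RNA differences of 2-fold with the interval clear of 1 were counted as well. At the gaining stretches RNA was 2-fold higher in 45 of 228 in total RNA pair 1, 155 of 277 in pair 2 and 36 of 211 in poly(A) RNA. At the losing stretches RNA was 2-fold lower in 13 of 222, 24 of 225 and 12 of 218. There, poly(A) RNA was below 1 in 109 of 218, and RNA was 2-fold higher in 7, 14 and 4 stretches in total RNA pairs 1 and 2 and poly(A) RNA. Over all kept windows with at least 10 reads, which are shorter than stretches, RNA was 2-fold higher in 9.30%, 23.7% and 5.24%. It was 2-fold lower in 2.12%, 11.7% and 2.04%, so 24 of 225 in pair 2 was no larger a share than this. No share over all windows was counted for the intervals of the named stretches.

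**Figure D4:**
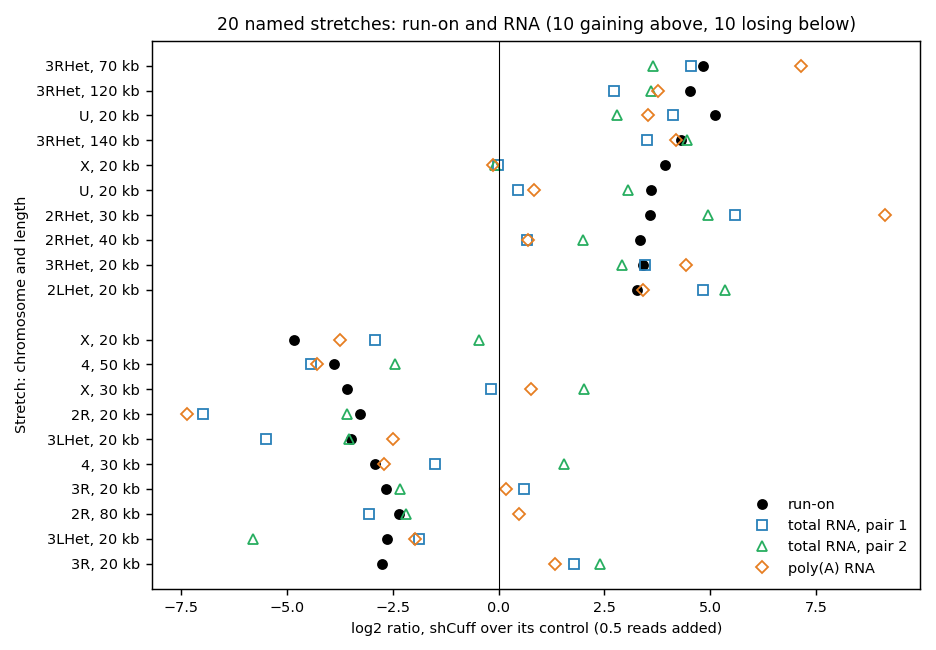
Log2 ratio (shCuff over its control, 0.5 reads added) of the 20 named stretches, the 10 with more run-on reads in shCuff above and the 10 with fewer below, in run-on (filled circles), total RNA pair 1 (squares), total RNA pair 2 (triangles) and poly(A) RNA (diamonds). RNA symbols lie right of 0 in the gaining stretches except the tip of the X, where they sit near 0 with the bin of most reads included, and on both sides of 0 in the losing ones.

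RNA was read in the same way over all called windows. Where a pair had at least 10 reads in a window, total RNA pair 1 was at least 2-fold higher with its interval clear of 1 in 24.9% (84 of 338) of windows higher in run-on, against 9.30% of all kept windows. Poly(A) RNA was higher in 22.9% (76 of 332) of windows higher in run-on, against 5.24% of all kept windows. For pair 2, with the shCuff library that stood apart, the shares were 59.2% of windows higher in run-on and 23.7% of all kept windows. At windows lower in run-on, RNA was 2-fold lower in 13.9%, 21.6% and 8.76% of windows in the 2 total pairs and poly(A) RNA, against 2.12%, 11.7% and 2.04% of all kept windows. On the 5 arms alone the shares at windows higher in run-on were 14.6% in total RNA pair 1 and 13.1% in poly(A) RNA, against 8.50% and 4.52% of all arm windows, and 55.9% in pair 2, against 23.2%. At arm windows lower in run-on, RNA was 2-fold lower in 10.9%, 20.97% and 7.89% in the 2 total pairs and poly(A) RNA, against 1.91%, 10.6% and 1.82% of all arm windows. On Het scaffolds, U and Uextra, RNA was higher in 52.3% (45 of 86) of windows higher in run-on in total RNA pair 1, against 29.5% of all kept windows there. In pair 2 it was 77.5% (69 of 89), against 42.9%, and in poly(A) RNA 63.3% (38 of 60), against 30.4%. At most called arm windows with enough RNA reads, then, no 2-fold RNA difference was seen in pair 1 or in poly(A) RNA. The run-on control and the RNA control differ in genotype, and the part of that difference was not tested.

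At 1-kb resolution, the 10 bins highest in shCuff by the interval all lay on 3RHet, which held 579 of the 56298 kept bins. The 10 lowest all lay on the 5 arms, which held 52736 of them, so that place is near the share of all kept bins. The bin from 599001 to 600000 had 161 reads in shCuff and 0 in the control, and the interval of its ratio began at 41.9. The bin from 2183001 to 2184000 had 373 in shCuff and 3 in the control, a ratio of 121 (41.0 to 588), and it was also high in RNA, with 88 reads in shCuff and 0 in shWhite in total RNA pair 1 and 242 in shCuff and 0 in shWhite in poly(A) RNA. The bin from 598001 to 599000, in contrast, had 225 run-on reads in shCuff and 1 in the control but 3 reads in shCuff and 0 in shWhite in total RNA pair 1. Among the lowest, X from 15753001 to 15754000 had 0 reads in shCuff and 76 in the control, and the interval of its ratio ended at 0.0483. Its RNA did not share the loss, with 17 reads in shCuff and 20 in shWhite in total RNA pair 1, 89 in shCuff and 81 in shWhite in pair 2, and 52 in shCuff and 54 in shWhite in poly(A) RNA. On 3R, the bin from 27581001 to 27582000 had 0 reads in shCuff and 72 in the control. Its RNA was lower too, with 18 reads in shCuff and 40 in shWhite in total RNA pair 1 and 9 in shCuff and 67 in shWhite in pair 2. Poly(A) RNA of that bin had 71 reads in shCuff and 105 in shWhite. Inside 42AB, the bin from 2228001 to 2229000 had 1 read in shCuff and 89 in the control. Total RNA there had 0 reads in shCuff in both pairs, against 6 and 21 in shWhite, and poly(A) RNA had 0 in each.

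The piRNA clusters were placed from background knowledge of published positions, and 6 of the 227 losing stretches overlapped 4 of the 7 clusters while 1 gaining stretch overlapped 1. Any overlap counted, so stretches that lay partly outside a cluster are included. Among the 6, the stretches of 2R from 2130001, 2210001 and 2310001 all overlapped 42AB. Over the genome losing stretches covered 5760 kb and gaining ones 8717 kb, and no share expected in the clusters was worked out. The counts of 6 and 1 are therefore a description and are not weighed against each other. Along 42AB, a large dual-strand cluster of the germline, all 17 sections of 10 kb with at least 10 reads were lower in shCuff, and 16 had an interval below 1. Their ratios ran from 0.0445 to 0.992 with a median of 0.164. The loss was weakest in the left part, where the section from 2164001 to 2174000 had 93 reads in shCuff and 91 in the control, 0.992 (0.735 to 1.34), and the next one had 252 reads in shCuff and 366 in the control, 0.668 (0.567 to 0.787). It was deepest from 2354001 to 2364000, with 5 reads in shCuff and 109 in the control. The 50-kb flank on the right had 950 reads in shCuff and 645 in the control, 1.43 (1.29 to 1.58). The left flank went the other way, with 1213 reads in shCuff and 1569 in the control, 0.751 (0.696 to 0.809), and a losing stretch from 2130001 to 2160000 crossed that border.

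The other dual-strand clusters were uneven inside. In 80F, a cluster near the centromere of 3L, the 3 windows from 23280001 to 23310000 had 85 reads in shCuff and 297 in the control, 0.278 (0.216 to 0.355), while its last 2 kb had 30 reads in shCuff and 27 in the control. In 38C_b, from 20148001 on 2L, sections ran from 0.243 (0.121 to 0.452) to 2.77 (1.48 to 5.52), so losses and gains lay side by side. The cluster 38C_a, from 20104001 on 2L, had 146 reads in shCuff and 97 in the control, 1.46 (1.12 to 1.91). Its first bin held 61 of these in shCuff and 11 in the control, and the ratio was 0.960 without it. In the cluster of chromosome 4 from 1258001 to 1349000, the first 10 kb had 6 reads in shCuff and 48 in the control, 0.121 (0.0424 to 0.284). Further in, the section from 1278001 had 45 reads in shCuff and 18 in the control, 2.43 (1.38 to 4.45), and the gaining stretch lay there, from 1270001 to 1300000, with 153 reads in shCuff and 41 in the control, 3.62 (2.55 to 5.25). The section from 1298001 had 81 reads in shCuff and 8 in the control, and all of those reads lay in 1 bin. The uni-strand cluster 20A had 3 sections with at least 10 reads, with ratios from 0.608 to 0.906. A losing stretch at its edge, X from 21430001 to 21460000, had 100 reads in shCuff and 253 in the control, 0.384 (0.301 to 0.486). It lay mostly outside the cluster, which ends at 21432000. In flamenco, the cluster of the somatic follicle cells, 8 of 14 sections were lower and 2 had an interval below 1, while 4 had an interval above 1.

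The series title concerns termination, so run-on was also read by distance from polyadenylated RNA, with the 5 arms split at bins of at least 1 RPKM in shWhite poly(A) RNA. Within such bins shCuff had 1469588 reads and the control 1623536, or 64.1% of the arm reads in shCuff and 71.2% in the control, a ratio of 0.879 (0.877 to 0.881). Outside them the ratio was 1.22 (1.215 to 1.223). It was 1.21 (1.20 to 1.21) at 1 kb, 1.13 (1.12 to 1.14) at 2 kb, 1.17 (1.16 to 1.18) at 6 to 10 kb, 1.30 (1.29 to 1.31) at 11 to 20 kb and 1.36 (1.35 to 1.37) at 21 to 50 kb. At over 50 kb it was 1.31 (1.29 to 1.33). The ratio was thus below 1 within the blocks of poly(A) RNA and above 1 at every distance outside them. What this means for termination was not tested. The median log2 ratio of kept bins was -0.38 within the blocks and 0.39 outside them.

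Each arm showed the same order. Outside the blocks the ratios were 1.24 on 2L, 1.26 on 2R, 1.27 on 3L, 1.21 on 3R and 1.13 on X. Within the blocks they were 0.799 on 2L, 0.845 on 3L, 0.834 on 3R and 0.850 on X. On 2R the value within the blocks was 1.06, but 0.934 without its bin of most reads. Total RNA outside the blocks was also higher in shCuff than in shWhite, with summed ratios of 1.57 in pair 1 and 1.24 in pair 2, but not at every distance, since pair 1 had 0.814 at over 50 kb and pair 2 had 0.951 at 1 kb. Poly(A) RNA there had 1.57, but 0.879 when the blocks were taken from shCuff poly(A) RNA, so the library that sets the blocks decides that value and no direction is read from it. With the blocks of shCuff, the run-on ratios were 0.880 within and 1.24 outside. Total RNA outside the blocks of shCuff had 1.38 in pair 1 and 1.23 in pair 2. At 21 to 50 kb, pair 1 had 1.63 with the blocks of shWhite but 1.12 with those of shCuff. The choice of library thus bears on total RNA pair 1 as well. The files hold no strand and no gene ends, so upstream and downstream sides cannot be told apart, and bins outside the blocks also held fewer run-on reads each.

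**Figure D5:**
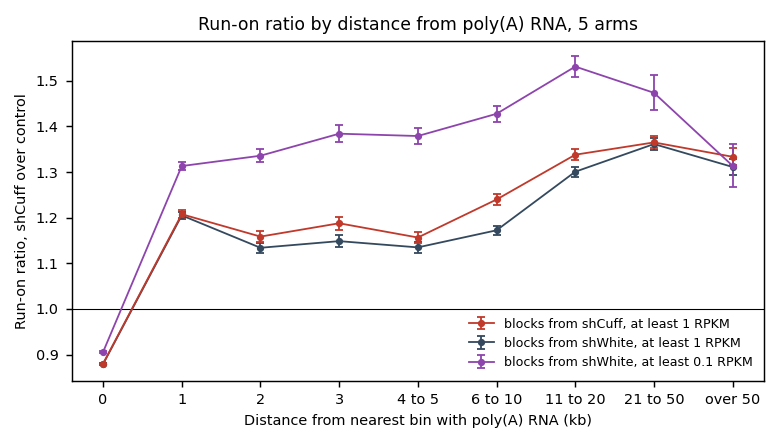
Run-on ratio (shCuff over control) on the 5 arms, summed over bins at each distance in kb from the nearest bin with poly(A) RNA, with 95% counting intervals, for blocks from shCuff poly(A) RNA (red), from shWhite poly(A) RNA (dark blue) and from shWhite at a minimum of 0.1 RPKM (purple). All 3 lines lie below 1 at distance 0 and above 1 at every distance from 1 kb on.

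Known loci were read at intervals taken from background knowledge. At the place of white, X from 2684001 to 2691000, run-on had 1324 reads in shCuff and 1781 in the control, 0.722 (0.672 to 0.775). RNA there was higher in shCuff, with ratios of 3.89 (3.38 to 4.48) and 6.85 (5.46 to 8.69) in total RNA and 4.10 (3.75 to 4.50) in poly(A) RNA, where the control carries the hairpin against white. The intervals of the Hox complexes, whose homeotic genes pattern the body axis and are mostly silent in the ovary, had few reads outside 1 bin. In the Antennapedia complex shCuff had 5649 reads and the control 4308, of which 5002 in shCuff and 3767 in the control lay in the 1-kb bin starting at 2644001, and the ratio was 1.16 without it. Of its 17 sections of 10 kb with at least 10 reads, 8 had an interval above 1 and 1 had an interval below 1, with a median ratio of 2.91. The section below 1, from 2580001 to 2590000, had 164 reads in shCuff and 295 in the control, 0.540 (0.443 to 0.655), and weighed on the summed ratio. The bithorax complex had 148 reads in shCuff and 96 in the control, 1.497 (1.15 to 1.956).

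The places of the heat shock genes Hsp70, which encode chaperones induced by stress, had more run-on reads in shCuff. At 87C shCuff had 1162 reads and the control 350, a ratio of 3.22 (2.86 to 3.64), while RNA was 0.440 (0.348 to 0.553), 0.510 (0.396 to 0.654) and 0.371 (0.321 to 0.429) in total RNA pairs 1 and 2 and poly(A) RNA. At 87A the ratio was 2.50 (2.13 to 2.93), but 555 of 566 shCuff reads and 219 of 220 control reads lay in the last bin of the interval. Total RNA at 87A was lower, with 13 reads in shCuff and 36 in shWhite in pair 1 and 0 in shCuff and 43 in shWhite in pair 2, while poly(A) RNA had 51 reads in each, 0.765 (0.509 to 1.15). The Hsp70 copies are nearly identical, so the placing of these reads is uncertain. The histone gene array, a tandem repeat, kept 40 reads in shCuff and 9 in the control, 4.31 (2.06 to 10.1), in a handful of bins.

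At the chorion amplicon of 66D, run-on and RNA differed in direction. With the reads given above, its run-on ratio was 0.717 (0.693 to 0.742), while total RNA was 1.88 (1.85 to 1.90) and 1.41 (1.40 to 1.42) and poly(A) RNA 1.81 (1.80 to 1.82). At 7F shCuff had 2434 run-on reads and the control 2496, 0.947 (0.895 to 1.00). These genes are expressed in late follicle cells, and the part of differing egg chamber stages in any result was not tested. The mitochondrial genome, which has its own polymerase, had 71878 reads in shCuff and 50626 in the control, 1.38 (1.36 to 1.39).

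A few bins held a large share of all run-on reads and were higher in shCuff. The bin of 2R from 19727001 to 19728000 had 74533 reads in shCuff and 34511 in the control, or 2.97% of the shCuff library and 1.42% of the control library, a ratio of 2.10 (2.07 to 2.12). X from 17038001 to 17039000 had 41885 in shCuff and 23423 in the control, 1.74 (1.71 to 1.76), and 2R from 13504001 to 13505000 had 22012 in shCuff and 3925 in the control, 5.44 (5.26 to 5.63). The first of these had 80 poly(A) reads in shCuff and 50 in shWhite, far fewer than its run-on reads although the poly(A) libraries held more reads in all. In total RNA it went opposite ways in the 2 pairs, with 10351 reads in shCuff and 3223 in shWhite in pair 1 but 791 in shCuff and 6743 in shWhite in pair 2. No gene is named for these bins, since no annotation of dm3 was used here.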

How the data were processed

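The authors isolated nuclei of ovaries, let engaged polymerases incorporate BrUTP and captured the labelled RNA with an antibody against BrdU, per the labels' protocols, and made directional libraries. Cutadapt, Bowtie 0.12.7 and dm3 are named in the submitters' processing notes; the rules for reads with several matches, not given in the sources used here, bear on every value in repeats. The deposited files give RPKM and read counts per 1-kb bin without strand. Counts were whole in the total RNA pair 1 and poly(A) files; 1 to 8 bins of each run-on and total RNA pair 2 file were not, so the deposited values of these files were taken as estimated counts and rounded. File names carry a code that differs between these sets and whose meaning is not stated.

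Bins and windows needed a mean of at least 1 RPKM over both run-on libraries. Ratios are of RPM with 95% exact conditional intervals, computed with SciPy 1.17.1, NumPy 2.4.6 and pandas 2.3.3. Calls needed 2-fold and an interval clear of 1. The 10 bins, windows and stretches per direction with the interval bound nearest to 1 lying farthest from it were named, with at most 3 on U or Uextra. Intervals cover counting error only. The calculation was tested on simulated data. Alternatives were other scalings, filters, window lengths, folds and interval ends. Members, loci and lists were chosen with earlier results of these data known. The other 6 samples of the series were not used here.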

Additional observations from a re-analysis of the deposited data

How the results depend on the processing

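Counts moved with the fold, the resolution and the filter. Bins called numbered 6461 higher and 5307 lower at a minimum of 5 RPKM. Windows called numbered 1978 higher and 1326 lower at 5 kb, 316 and 208 at 20 kb, 305 and 228 at a minimum of 5 RPKM, and 1692 and 1195 with no filter. Stretches numbered 124 higher and 58 lower at 2-fold per window, 597 and 517 with 5-kb windows, and 116 and 113 with 20-kb windows. Scaling to reads outside U, Uextra and M multiplied every ratio by 1.02; it gave 0.994 for the 5 arms, 1.46 for all Het scaffolds, 0.894 for bins with poly(A) RNA and 1.24 for bins without. Centring on the median window gave 0.998, 1.47, 0.898 and 1.25 for these. Without the bin of most reads they were 0.959 for the arms, 1.47 for Het scaffolds and 0.852 for bins with poly(A) RNA, and 3RHet had 2.89. As alternatives added after seeing the data, blocks from shCuff poly(A) RNA gave 1.24 for bins without it, and blocks of at least 0.1 RPKM gave 0.905 within and 1.37 outside. Of the loci, 38C_a turned from 1.46 to 0.960 without its bin of most reads and to 0.906 with 1 kb off each end, and the chromosome 4 cluster from 1.44 to 0.792 without 1 bin. Hsp70 at 87A had 10.7 without its edge bin and 1.87 with 5 kb added. Leaving the bin of most run-on reads out of the RNA sums, also added after seeing the data, turned poly(A) RNA from 0.911 to 5.27 at the tip of the X and from 21.9 to 0.948 in 3RHet from 820001 to 840000. Of the other values, 212 for single chromosomes, loci and stretches kept their direction within the counting interval and 49 moved past it without changing sides of 1 where a direction was called. The causes were not tested. No paired analysis was possible because each side had 1 library and the titles carry no replicate numbers, so leaving out a replicate was not possible either. At this depth the median counting error of windows with reads in both libraries was 0.16 on the log2 scale. A bin with 1 to 3 reads in all cannot be called, since the interval of its ratio always holds 1.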
